A study of Homo sapiens with 6 samples.

Results

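Interferon-stimulated genes are the antiviral effectors, RNA sensors and transcription factors that cells switch on in response to interferon. The 42 described here were taken from a table of 20014 genes by symbol: known interferon-stimulated genes other than the OAS and IFIT families. The list uses no threshold on these values, but it was drawn up with earlier results of these data known. All 42 were found, and 30 reached a mean of 1 FPKM (a read level corrected for transcript length and sequencing depth) over the 6 libraries, the level needed for the main test. HaCaT, the cell line used throughout, is a human keratinocyte line that grows without limit. In 3 libraries the cells carried a lentivirally delivered CRISPR guide against STUB1, a ubiquitin ligase that works with the HSP70 and HSP90 chaperones. In the other 3 the cells carried a control guide and are labelled wild type. Both groups are labelled as having had no special treatment, no interferon is named in the labels, and both carry the lentiviral vector. Infected cells were sorted into multiwell plates and the colonies were screened by immunoblot for STUB1 protein. Nothing in the labels tells if a group's 3 libraries are different clones, different cultures or repeats of 1 preparation. The p-values therefore speak to the scatter among these 6 libraries, and some or all of it could be technical.

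Type I interferons bind the IFNAR1 and IFNAR2 receptor chains, and type III interferons bind IFNLR1 and IL10RB, a pairing that matters in epithelia such as the epidermis. Both routes activate the kinases JAK1 and TYK2, which phosphorylate STAT proteins. STAT2 and IRF9 are subunits of ISGF3, the factor that binds interferon-stimulated response elements (ISREs) in the promoters of its target genes. Several targets are themselves part of the machinery, among them STAT2, IRF9, IRF7 and the RNA sensors, and many are transcribed at a low level without added interferon through unphosphorylated forms of the same proteins.

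Promoter windows from RefSeq (build GRCh38.p14, 250 bases before to 50 after each listed start) matched 37 of the 42 genes. IRF7, DHX58, USP18, MX2 and IFITM2 had no entry. The ISRE core, written GAAANNGAAA and searched on both strands, occurred in 23 of the 37 genes (62.2%). It occurred in 4.38% of all 27305 genes with a window and in 3.57% of all 35116 windows. The core of the gamma-activated site, TTCNNNGAA, which reads the same on both strands and in places overlaps an ISRE match, occurred in 12 of the 37 genes and in 9.38% of all genes with a window. The sequences below are the 160 bases that end just before a listed start, 5′ to 3′ on the strand of the gene, with the ISRE core matches in capitals. DDX60 (chr4:168318753-168318912, minus strand), IFI44 (chr1:78649629-78649788, plus strand), BST2 (chr19:17405631-17405790, minus strand) and RSAD2 (chr2:6877617-6877776, plus strand, the second listed start) are shown because their mRNAs rose and their windows hold the core. ISG15 (chr1:1013337-1013496, plus strand) and IFI6 (chr1:27672193-27672352, minus strand) are shown as classical interferon targets with the core whose change did not pass the test, and PARP9 (chr3:122564301-122564460, minus strand, the second listed start) because its match is shared with DTX3L. LGALS3BP (chr17:78979924-78980083, minus strand) is the gene whose mRNA fell.
DDX60: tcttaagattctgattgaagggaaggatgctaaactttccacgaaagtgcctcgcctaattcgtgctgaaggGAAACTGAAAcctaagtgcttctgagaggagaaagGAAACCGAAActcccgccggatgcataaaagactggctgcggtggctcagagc
IFI44: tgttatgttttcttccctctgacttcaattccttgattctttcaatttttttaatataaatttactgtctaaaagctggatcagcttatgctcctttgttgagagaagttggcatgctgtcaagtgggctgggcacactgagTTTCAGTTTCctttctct
BST2: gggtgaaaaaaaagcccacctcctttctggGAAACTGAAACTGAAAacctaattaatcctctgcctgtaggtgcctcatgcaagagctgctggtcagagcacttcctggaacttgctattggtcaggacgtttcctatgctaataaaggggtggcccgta
RSAD2: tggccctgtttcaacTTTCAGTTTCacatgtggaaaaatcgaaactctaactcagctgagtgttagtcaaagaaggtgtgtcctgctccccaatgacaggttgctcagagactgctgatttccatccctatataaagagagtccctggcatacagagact
ISG15: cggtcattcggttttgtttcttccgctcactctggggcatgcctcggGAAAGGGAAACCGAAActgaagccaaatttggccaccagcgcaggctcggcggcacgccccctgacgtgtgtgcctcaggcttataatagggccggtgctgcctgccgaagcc
IFI6: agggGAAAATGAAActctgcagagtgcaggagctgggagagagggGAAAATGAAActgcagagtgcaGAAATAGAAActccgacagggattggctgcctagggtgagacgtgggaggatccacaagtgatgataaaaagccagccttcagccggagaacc
PARP9: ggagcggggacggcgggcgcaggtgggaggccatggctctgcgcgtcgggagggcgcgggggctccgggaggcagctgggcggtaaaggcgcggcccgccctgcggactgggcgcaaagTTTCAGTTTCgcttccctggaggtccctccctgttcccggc
LGALS3BP: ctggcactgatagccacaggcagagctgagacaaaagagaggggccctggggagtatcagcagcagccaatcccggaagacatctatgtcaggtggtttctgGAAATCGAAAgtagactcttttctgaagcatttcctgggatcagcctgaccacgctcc

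In DDX60 the core stands at positions -88 to -79 and -53 to -44 counted from the start, both on the gene's strand. In BST2 and in ISG15 a pair of matches overlap, so the capitals form 1 longer run. IFI6 holds 3 separate matches, the nearest at -93 to -84. IFI44, RSAD2 and PARP9 hold it on the opposite strand. PARP9 and DTX3L are transcribed away from each other, and the match in their windows is 1 and the same site, chr3:122564332-122564341.

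**Figure D1:**
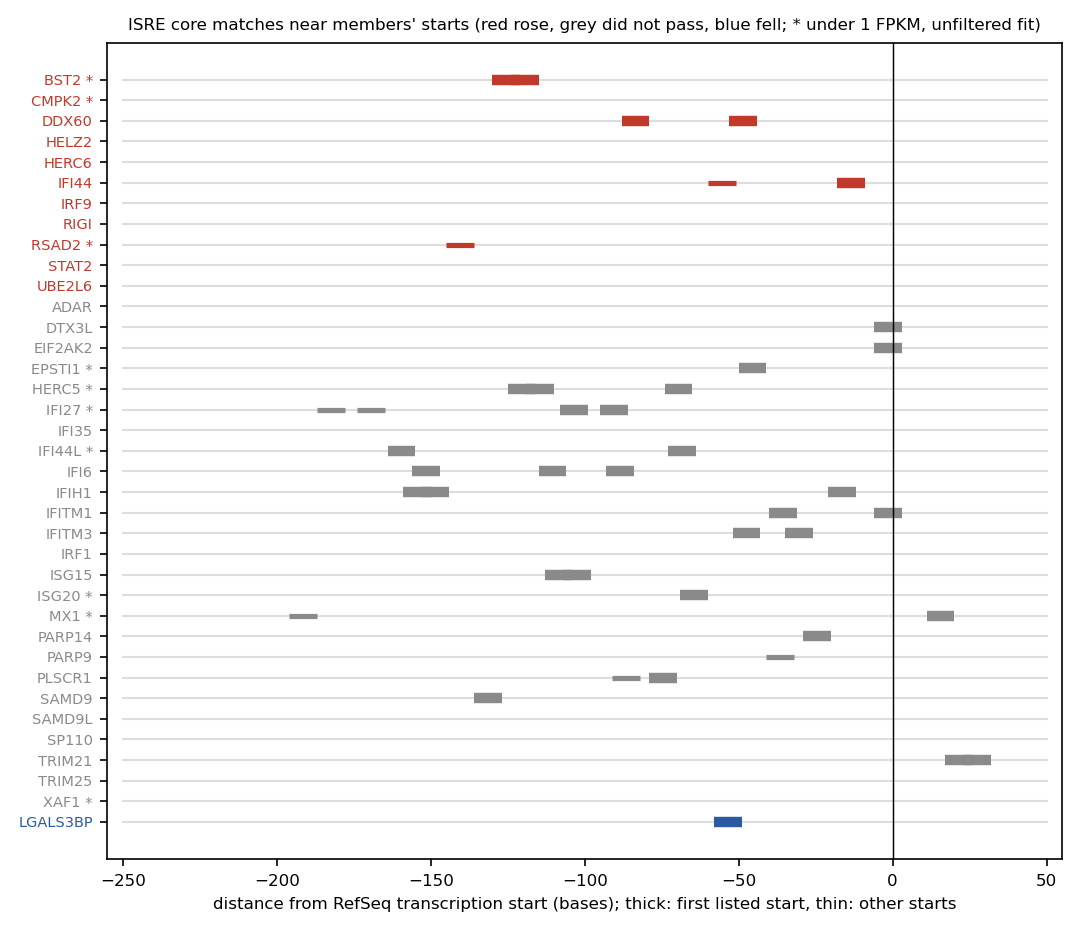
Positions of the ISRE core matches (bars) along the promoter windows of the 37 genes with a RefSeq entry, in bases from the transcription start on the x axis. Thick bars belong to the first listed start and thin bars to other starts, and gene names are red for a rise, grey for genes that did not pass and blue for a fall, with an asterisk where the gene was under 1 FPKM and the fit without a filter was used. Matches lie mostly in the 160 bases before the start, and the windows of 6 of the 8 genes that rose in the main test hold none.

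Genes with and without the ISRE core were found both among those that rose and among those that did not pass. Of the 8 genes that rose in the main test, 2 held the core in their window (25.0%), IFI44 and DDX60. Among the 18 genes with a window that did not pass the main test, 12 held it (66.7%). In that test STAT2, IRF9, RIGI, UBE2L6, HERC6 and HELZ2 rose without it, IRF9 with a gamma-activated site core instead. Of the genes under 1 FPKM with a window, 2 of the 3 that rose in the fit without a filter held the ISRE core (66.7%). So did 6 of the 7 that did not pass that fit (85.7%). These are counts of letters in a window and were not tested. A match is not shown to be a bound site. Only the exact core was searched for, so a window without a match may still hold a variant of it. Such a window also says nothing of ISGF3 elsewhere in the gene.

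In STUB1 knockout cells a minority of the 30 tested genes rose, most of those by less than 1.5-fold, and 1 fell. Among them the largest rises were in IFI44 (2.15-fold) and DDX60 (2.16-fold), followed at lower folds by HERC6, RIGI, STAT2, IRF9, HELZ2 and UBE2L6. Genes under the level filter, some with higher ratios, are described after them. Fold means the ratio of the mean FPKM values throughout, whereas log2 fold changes are differences of log2(FPKM + 1), which understate the change of low genes. Of the 30 tested genes, 8 were higher (26.7%), 1 was lower (3.33%) and 21 did not pass (limma, Benjamini-Hochberg adjusted p under 0.05 over all 11262 tested genes). Among all tested genes 9.58% were higher and 13.3% lower. The median log2 fold change was 0.11 over the 30 genes and -0.01 over all tested genes, and 24 of the 30 were above 0. In 9 of the 30 every knockout library was above every control library, against 20.4% of all tested genes, and in 3 every knockout library was below, against 25.3%. None of the 30 had passed the level filter through 1 group alone. Groups of 3 against 3 allow an exact two-sided permutation p of no less than 0.1, and every gene whose groups did not overlap had that value. In bulk RNA a change in the number of cells that express a gene cannot be told apart from a change in RNA per cell.

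**Figure D2:**
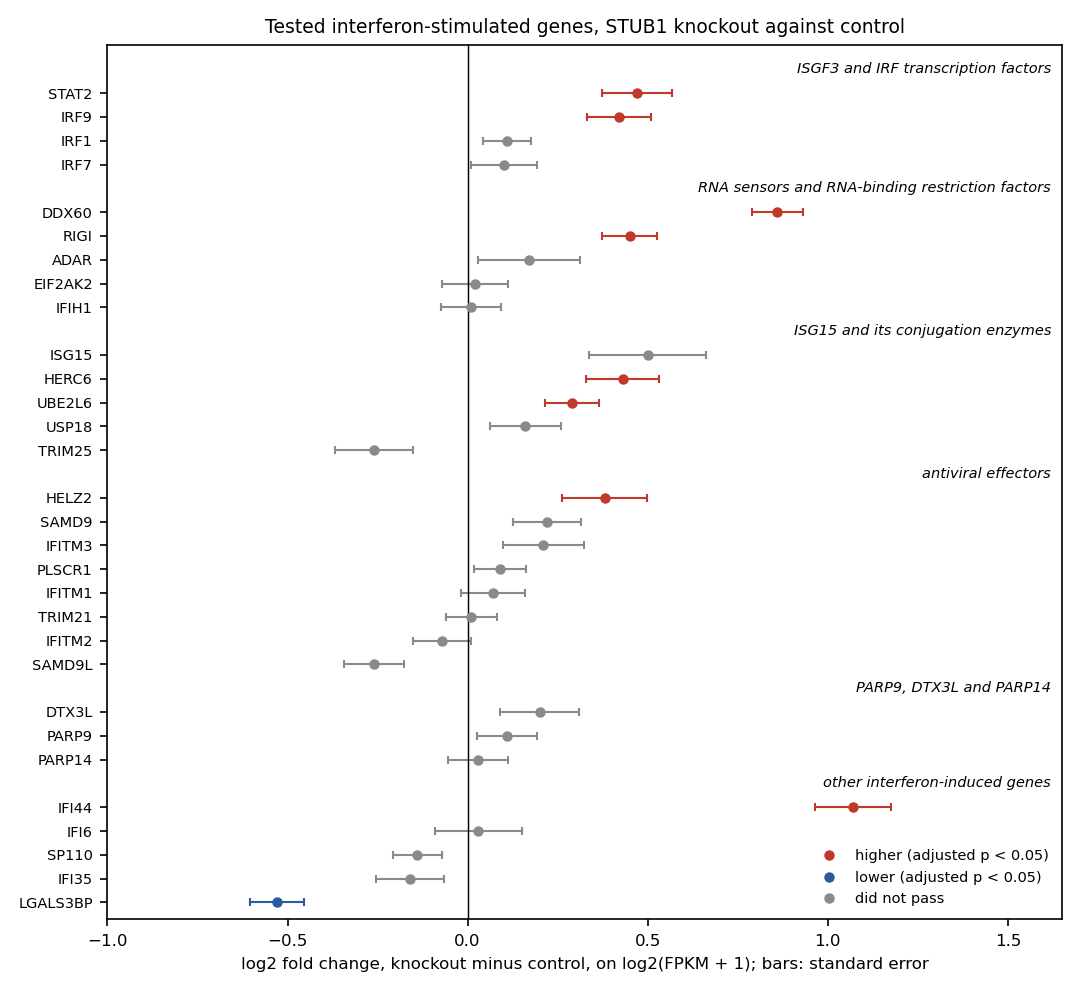
Log2 fold change of the 30 tested interferon-stimulated genes, knockout minus control on the log2(FPKM + 1) scale, with bars for the standard error, grouped by role. Red points passed the test as higher, the blue point as lower, and grey points did not pass; IFI44 (1.07) and DDX60 (0.86) stand to the right of the rest, and LGALS3BP (-0.53) is the only blue point.

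STUB1 mRNA itself was at 21.6, 24.7 and 23.2 FPKM in knockout libraries 1 to 3 and at 37.8, 41.9 and 52.7 in the controls, 52.5% of the control mean (limma, adjusted p = 0.00125). Control 3 stood apart, with Pearson's r across genes of 0.988 and 0.986 to the other controls, where controls 1 and 2 had 0.998 and the knockout libraries 0.996 to 0.999. Mitochondrially encoded transcripts took 20.9% of its FPKM, against 24.7% to 30.8% in the other 5 libraries. Of 6 keratinocyte markers, KRT5, CDH1, TP63 and SFN were expressed, but KRT14 and KRT17 stayed at or below 0.328 and 0.536 FPKM in every library. The summed keratinocyte markers were at 751 to 850 FPKM in knockout and 617 to 727 in control libraries. Of them KRT5 passed as higher (1.77-fold, log2 fold change 0.82, limma adjusted p = 0.000267), and CDH1, TP63 and SFN did not pass, at ratios of 1.08, 1.01 and 1.06. The 6 leukocyte, 4 plasmacytoid dendritic cell and 6 fibroblast markers were each under 1 FPKM in every library, and TLR7 and DCN were listed at 0 in all 6, with PTPRC at 0.0110 FPKM or less. The leukocyte sum was lower in the knockout, at 0.216 to 0.321 FPKM against 0.525 to 0.863. Of 5 melanocyte markers PMEL alone reached 1 FPKM, and they summed to 5.00 to 5.93 in knockout and 5.30 to 5.64 in control libraries. What part, if any, the KRT5 difference has in the other results was not tested.

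Among the transcription factors, the ISGF3 subunits STAT2 and IRF9 rose together and the IRF factors IRF7 and IRF1 did not pass. STAT2, the subunit that carries the transactivation domain of ISGF3, was at 10.9, 11.5 and 11.6 FPKM in the knockout libraries and 8.18, 8.96 and 6.75 in the controls. Every knockout value was above every control value. The rise was 1.42-fold (log2 fold change 0.47, SE 0.0976, limma adjusted p = 0.0102), and without knockout 2 the adjusted p was 0.0627. IRF9, the subunit that recognises the DNA, was at 6.79, 7.92 and 7.94 FPKM against 5.15, 5.94 and 5.07, again with no overlap. It rose 1.40-fold (log2 fold change 0.42, SE 0.0888, limma adjusted p = 0.0106), with adjusted p of 0.0635 without knockout 2 and 0.0575 without knockout 3. IRF9 shares 1838 of its 3794 exonic bases with AL136295.5 on the same strand, so reads of that stretch could have been counted for either.

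IRF1, an early factor that also responds to interferon-gamma and to NF-kB, was at 12.6, 13 and 12.5 FPKM in the knockout and 11.4, 11.9 and 11.7 in the control. Its groups did not overlap, but the difference was small (log2 fold change 0.11, limma adjusted p = 0.248). C5orf56 overlaps 1716 of its exonic bases on the opposite strand, and the strand setting of the counting is not given in the sources used here. IRF7, the factor that amplifies interferon-alpha production, was low in both groups, at 2.42, 2.60 and 2.05 FPKM against 1.88, 2.08 and 2.44, and the groups overlapped (log2 fold change 0.10, limma adjusted p = 0.458).

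Among the sensors and RNA-binding factors, DDX60 and RIGI rose while IFIH1, EIF2AK2 and ADAR did not pass. DDX60, a helicase described as a cofactor of RIG-I signalling, was at 5.40, 4.74 and 4.93 FPKM in the knockout and 2.34, 2.31 and 2.33 in the control. The lowest knockout library was above the highest control by a wide margin relative to either group's spread. The log2 fold change was 0.86 (SE 0.0710, limma adjusted p = 0.000146), the smallest p among these genes. RIGI, the cytosolic sensor of RNA with a 5′ triphosphate, was at 7.81, 6.84 and 7.35 FPKM against 4.83, 5.13 and 5.31, with no overlap. Its rise was 1.44-fold (log2 fold change 0.45, SE 0.0765, limma adjusted p = 0.00404). DDX60 and RIGI kept their calls under every alternative run, each library left out in turn included, except that DDX60, with a mean under 5 FPKM, was not among the genes tested at that minimum.

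The related sensor IFIH1 (MDA5), which binds long double-stranded RNA, was at 6.61, 5.49 and 6.30 FPKM in the knockout and 6.31, 6.07 and 5.79 in the control. These values are interleaved, and the log2 fold change was 0.01 (SE 0.0826, limma adjusted p = 0.923). EIF2AK2 (PKR), the kinase that halts translation on sensing double-stranded RNA, had 20.6, 17.5 and 19.7 FPKM against 20.4, 19.7 and 17.0, likewise interleaved. ADAR, which edits adenosine to inosine in double-stranded RNA, ranged from 31.5 to 34.4 FPKM in the knockout and from 22.3 (control 3) to 34.9 in the control. DHX58 (LGP2), the third RIG-I-like receptor, was under the level filter and is given with the low genes.

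ISG15 is a ubiquitin-like protein that is attached to other proteins by the conjugating enzyme UBE2L6 and by HERC-family and TRIM25 ligases, and is removed by USP18. ISG15 mRNA was at 19.7, 22.4 and 22.9 FPKM in the knockout and 12.0, 13.7 and 20.5 in the control. Control 3 lay between knockout 1 and knockout 2, so the groups overlapped, and a ratio of 1.41 did not reach the threshold (log2 fold change 0.50, SE 0.163, limma adjusted p = 0.0538). Without control 3 the log2 fold change was 0.71 and the adjusted p 3.13e-06, with the replicate number as a block the adjusted p was 0.00966, and ISG15 also passed with TPM scaling, with array weights and with both corrections for GC content and length.

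UBE2L6 was at 35.3, 40.6 and 37.0 FPKM in the knockout and 29.9, 30.0 and 31.9 in the control, with no overlap. It rose 1.23-fold (log2 fold change 0.29, SE 0.0760, limma adjusted p = 0.0256), but the adjusted p was 0.0917 without knockout 2, 0.0927 without knockout 3, 0.0872 without control 1 and 0.0568 without control 2. The 203 tested genes within 10 Mb of UBE2L6 had a median log2 fold change of 0.12, with 36 higher and 5 lower. Medians around the other main-test rises were 0.07 (IRF9), 0.05 (STAT2 and RIGI), 0.02 (HELZ2), -0.07 (DDX60 and HERC6) and -0.18 (IFI44). What part the neighbours have in these rises was not tested. HERC6, a ligase of the HERC family, was at 1.95, 1.88 and 1.88 FPKM against 1.42, 1.24 and 0.825, with control 3 the lowest. Its rise was 1.64-fold (log2 fold change 0.43, SE 0.1, limma adjusted p = 0.0156), with adjusted p of 0.0586 without knockout 1 and 0.0808 without knockout 2. Its chromosomal neighbour HERC5, the main ISG15 ligase in human cells, was close to undetected, at 0.106, 0.0590 and 0.0740 FPKM against 0.0370, 0.0320 and 0.108.

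USP18, which besides removing ISG15 damps signalling at IFNAR2, had a log2 fold change of 0.16 (limma adjusted p = 0.278) with 2.18 to 3.05 FPKM in knockout and 2.07 to 2.47 in control libraries. TRIM25, which also ubiquitinates RIG-I, had 16.0, 15.3 and 15.4 FPKM against 20.1, 21.3 and 15.7. Control 3 was within the knockout range and the other controls were above it (log2 fold change -0.26, limma adjusted p = 0.104). Without control 3 TRIM25 passed as lower (log2 fold change -0.39, adjusted p = 0.000151), and it also did with array weights and with both GC and length corrections. TRIM25 lies on chromosome 17, where the 112 tested genes within 10 Mb of it had a median log2 fold change of -0.36, 73 of them lower and 2 higher; what part this has in the TRIM25 value was not tested.

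**Figure D3:**
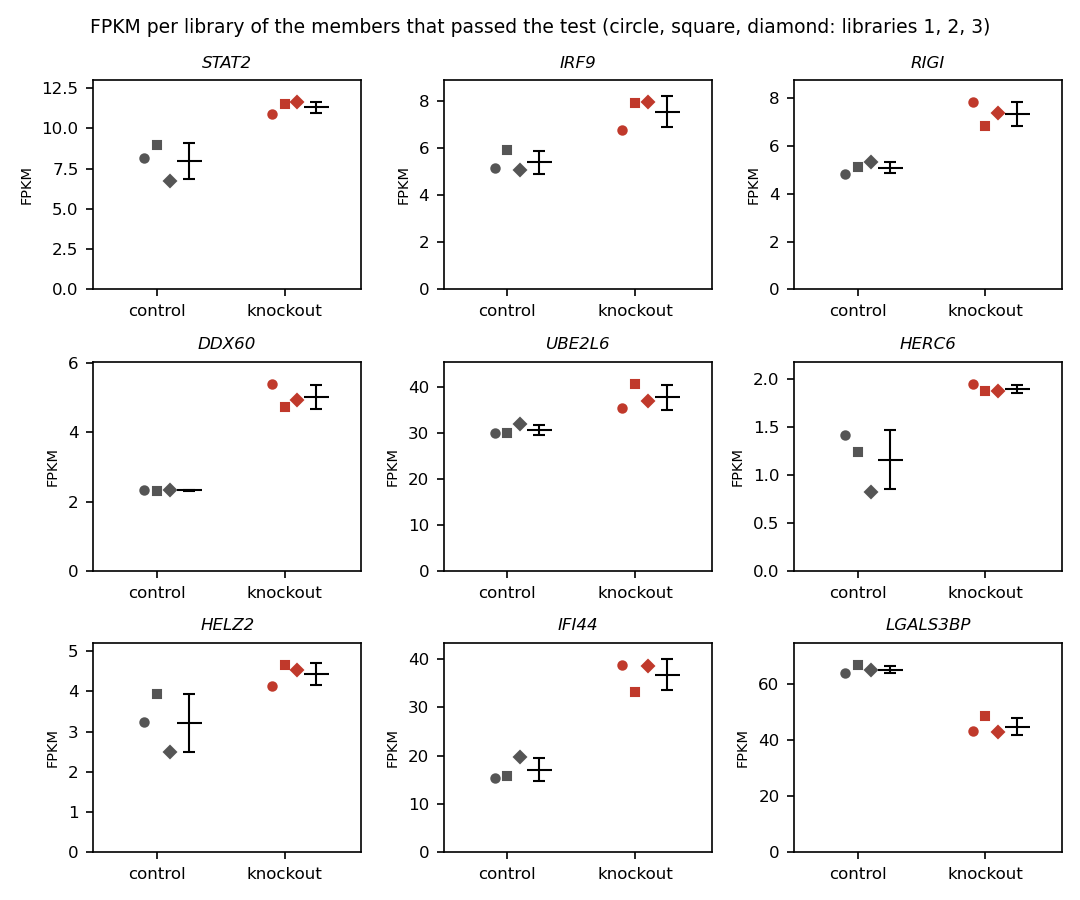
FPKM in each library of the 9 interferon-stimulated genes that passed the main test, control on the left and knockout on the right of each panel, with a bar for the mean and whiskers for the SD (n = 3). Each y axis starts at 0 and has its own range; in all 9 panels the groups do not overlap, and LGALS3BP is the panel in which the knockout is lower.

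Antiviral effectors expressed above the filter mostly did not pass. Of 8 tested, HELZ2 alone was higher and none was lower. HELZ2, a helicase and nuclear receptor coactivator, was at 4.13, 4.64 and 4.53 FPKM in the knockout and 3.23, 3.93 and 2.48 in the control, 1.38-fold (log2 fold change 0.38, SE 0.119, limma adjusted p = 0.0472). The groups did not overlap, but this was the least stable call, lost in 9 of 14 alternatives. The adjusted p was 0.0872, 0.182 and 0.127 without knockout 1, 2 and 3 and 0.0912 without control 1, and with the GC and length correction the log2 fold change dropped to 0.07 (adjusted p = 0.574).

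The interferon-induced transmembrane proteins, which block virus entry at membranes, included the most abundant of these mRNAs in the knockout, IFITM3, and did not pass. IFITM3 was at 78.1, 92.7 and 84.5 FPKM in the knockout and 64.7, 70.1 and 85.8 in the control, where control 3 was within the knockout range (log2 fold change 0.21, limma adjusted p = 0.190). Without control 3 IFITM3 passed as higher (log2 fold change 0.33, adjusted p = 0.00131). IFITM1 was at 27.2, 29.6 and 26.8 FPKM against 24.2, 25.9 and 29.6, and IFITM2 at 8.66, 9.32 and 8.66 against 8.83, 9.03 and 10.3. Both overlapped between the groups (log2 fold changes 0.07 and -0.07), and their gene models share 351 exonic bases on 1 strand, so their reads may be split between them.

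SAMD9 and SAMD9L are neighbouring paralogs on chromosome 7 that restrict virus translation, and their point estimates had opposite signs. SAMD9 was at 32.6, 25.9 and 30.4 FPKM in the knockout and 26.5, 25.5 and 23.6 in the control (log2 fold change 0.22, limma adjusted p = 0.125). SAMD9L was at 1.90, 1.46 and 1.77 FPKM against 2.26, 2.42 and 2.02, with every knockout library below every control (log2 fold change -0.26, limma adjusted p = 0.0542). Neither passed; SAMD9L did with median centring (adjusted p = 0.0438), with array weights and without control 3 (adjusted p = 0.00638), and SAMD9 did with array weights and with both GC and length corrections. The difference between the pair was not tested.

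PLSCR1, a phospholipid scramblase with antiviral activity, had 27.4 to 30.1 FPKM in knockout and 25.9 to 28.3 in control libraries. TRIM21, a cytosolic antibody receptor and ubiquitin ligase, had 8.31 to 8.77 against 8.19 to 8.96. Both ranges overlapped, with log2 fold changes of 0.09 and 0.01. PLSCR1 passed as higher with the GC and length correction (log2 fold change 0.26, limma adjusted p = 0.00826), with that correction plus the replicate block (0.0129) and with array weights (0.00279).

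PARP9, DTX3L and PARP14 lie in the same region of chromosome 3, with PARP9 and DTX3L directly beside each other. PARP9 and DTX3L form a complex that ADP-ribosylates and ubiquitinates. All 3 were expressed and none passed. PARP9 was at 6.89, 6.25 and 6.36 FPKM in the knockout and 6.07, 6.41 and 5.32 in the control (log2 fold change 0.11, limma adjusted p = 0.342). DTX3L was at 22.1, 19.7 and 21.3 FPKM against 19.2, 20.4 and 15.1 (log2 fold change 0.20, limma adjusted p = 0.201). In both, control 3 was the lowest library and control 2 lay within the knockout range. PARP14 was at 8.10 to 8.90 FPKM against 7.49 to 8.98 (log2 fold change 0.03). The shared ISRE core between PARP9 and DTX3L shown above stands beside a pair of genes whose changes did not pass.

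Of the remaining interferon-induced genes, IFI44 rose most and LGALS3BP fell. IFI44, a cytosolic protein with antiviral and antiproliferative activity, was at 38.7, 33.1 and 38.6 FPKM in the knockout and 15.5, 15.9 and 19.8 in the control. The lowest knockout library was well above the highest control, and the log2 fold change was 1.07 (SE 0.105, limma adjusted p = 0.000342). It passed under every alternative run, with log2 fold changes of 1.01 to 1.32. Its neighbour and paralog IFI44L, which stands just upstream of it on the same strand of chromosome 1, was close to undetected, at 0.0780, 0.0230 and 0.0170 FPKM against 0.0470, 0.0590 and 0.0560, although its window holds the ISRE core at 2 positions. The 35 tested genes within 10 Mb of IFI44 had a median log2 fold change of -0.18.

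LGALS3BP, a secreted glycoprotein that binds galectins, was at 43.4, 48.5 and 42.8 FPKM in the knockout and 64.0, 66.7 and 64.9 in the control. All knockout libraries were below all controls, at 68.9% of the control mean (log2 fold change -0.53, SE 0.0744, limma adjusted p = 0.00167), and the call held under every alternative run. On chromosome 17, 141 tested genes lie within 10 Mb of it; their median log2 fold change was -0.38, with 95 lower and 1 higher. What part this regional shift has in the fall of LGALS3BP was not tested.

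IFI6, a mitochondrial protein that is a strong interferon target in many cells, did not separate the groups, at 2.05, 2.53 and 2.41 FPKM in the knockout and 2.27, 1.74 and 2.86 in the control. SP110, a nuclear body protein, was at 1.59 to 1.74 FPKM against 1.88 to 2.12, with no overlap but without passing (log2 fold change -0.14, limma adjusted p = 0.150). IFI35 also had a negative estimate (log2 fold change -0.16, limma adjusted p = 0.254), and the 201 tested genes within 10 Mb of it on chromosome 17 had a median of -0.26.

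The other 12 genes had a mean under 1 FPKM. None was listed at 0 in every library. In a fit over all 16782 genes that were not at 0 throughout, 4 of the 12 were higher and none was lower, beside 6.27% of all genes in that fit higher and 9.0% lower. In 6 of the 12 every knockout library was above every control, against 9.49% of all genes under the filter and not at 0 throughout. The low genes with the largest ratios were CMPK2, BST2 and RSAD2, at about 4-fold, but the levels are low and log2(FPKM + 1) compresses the change.

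RSAD2 (viperin), which makes a chain-terminating nucleotide, and CMPK2, the mitochondrial nucleotide kinase that supplies its substrate, stand beside each other on chromosome 2 and are transcribed in opposite directions. RSAD2 was at 0.524, 0.426 and 0.507 FPKM in the knockout and 0.0810, 0.180 and 0.114 in the control, 3.89-fold (log2 fold change 0.40, limma adjusted p = 0.00284 without a filter). CMPK2 was at 0.348, 0.343 and 0.322 FPKM against 0.0550, 0.115 and 0.0700, 4.22-fold (log2 fold change 0.31, adjusted p = 0.00138 in the same limma fit). In both genes control 2 was the highest control, and still below every knockout library. The pair share 14 exonic bases. The RSAD2 window at the second listed start holds the ISRE core, the window at its first start does not, and no window of CMPK2 does.

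BST2 (tetherin), which holds budding virus particles at the cell surface, was at 0.737, 0.951 and 0.738 FPKM in the knockout and 0.0870, 0.211 and 0.302 in the control, 4.04-fold (log2 fold change 0.59, limma adjusted p = 0.00561 without a filter). DHX58, which tunes the signalling of RIG-I and MDA5, was at 0.622, 0.588 and 0.533 FPKM against 0.312, 0.233 and 0.232, 2.24-fold (log2 fold change 0.33, adjusted p = 0.00346 in that limma fit). Neither overlapped between the groups. DHX58 lies on chromosome 17, where the 208 tested genes within 10 Mb of it had a median log2 fold change of -0.26, with 104 lower and 2 higher. The 242 tested genes within 10 Mb of BST2 had a median of 0.12, with 21 higher and 3 lower. What part the neighbours have in either value was not tested. The rises of RSAD2, CMPK2, BST2 and DHX58 all held in the 9 alternatives run without a filter. Median centring, array weights and the GC and length corrections were not among those 9.

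**Figure D4:**
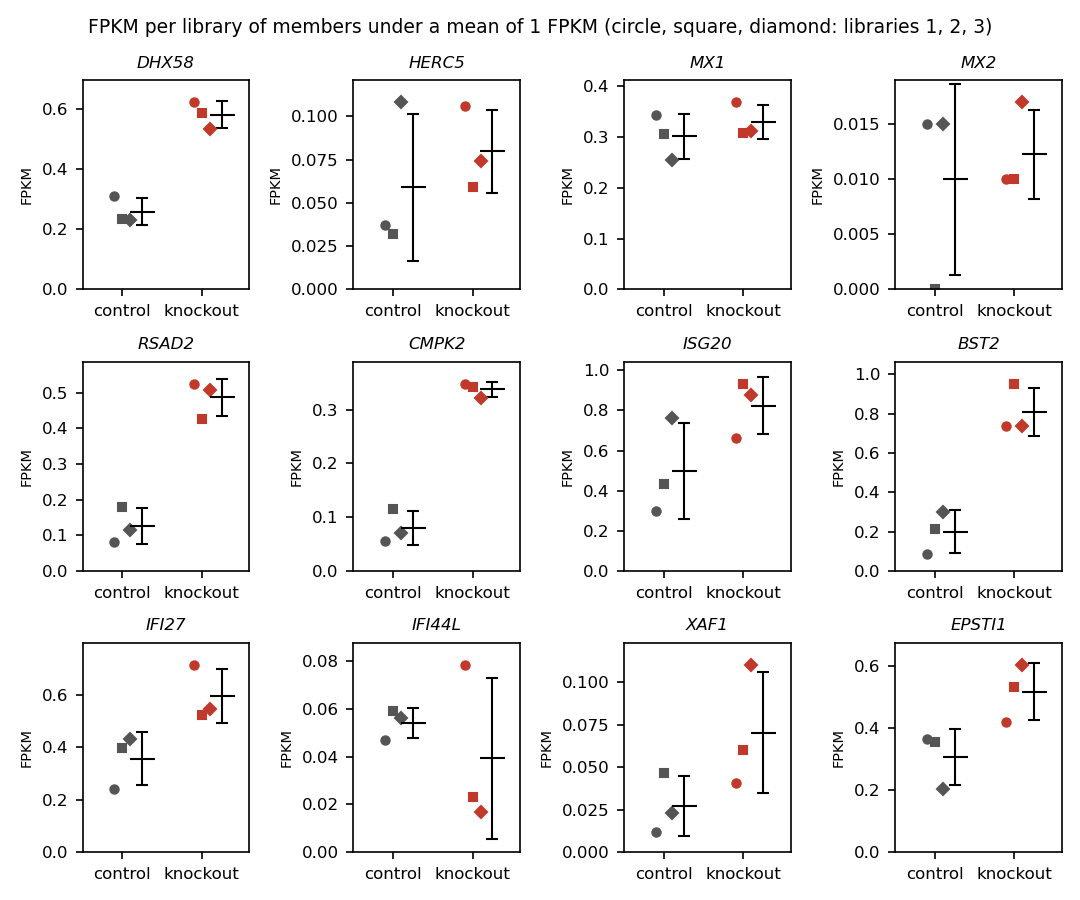
FPKM in each library of the 12 interferon-stimulated genes with a mean under 1 FPKM, with a bar for the mean and whiskers for the SD (n = 3); each y axis starts at 0 and has its own range. DHX58, RSAD2, CMPK2 and BST2 show separate groups and passed the fit without a filter, IFI27 and EPSTI1 show separate groups without passing, and the values of the other 6 overlap.

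IFI27 and EPSTI1, both strongly interferon-inducible in epithelia, had no overlap between the groups but did not pass. IFI27 was at 0.711, 0.524 and 0.547 FPKM in the knockout and 0.241, 0.396 and 0.431 in the control (limma adjusted p = 0.0633 without a filter). EPSTI1 was at 0.421, 0.532 and 0.602 FPKM against 0.364, 0.354 and 0.203 (adjusted p = 0.0658 in the same limma fit). ISG20, an RNA exonuclease, was at 0.661, 0.932 and 0.875 FPKM against 0.301, 0.433 and 0.761, where control 3 lay above knockout 1. Its adjusted p was 0.145, and 0.0280 without control 3.

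The MX genes, dynamin-like GTPases that trap viral nucleocapsids and are among the most widely used readouts of interferon, did not separate the groups. MX1 was at 0.368, 0.308 and 0.312 FPKM in the knockout and 0.343, 0.306 and 0.254 in the control (limma adjusted p = 0.561 without a filter). MX2 was at or below 0.0170 FPKM in all libraries and listed at 0 in control 2. XAF1, a pro-apoptotic interferon target, ranged from 0.0120 to 0.110 FPKM over the 6 libraries, with overlap. Reads from PRAL, which overlaps 2535 exonic bases of XAF1 on the opposite strand, cannot be told apart from its own without a stated strand setting.

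A list of 49 further genes covers interferon production, receptors, signalling and feedback, and 8 of them are targets of the interferon-gamma type. Of the 49, 32 were tested: 4 were higher (12.5%), 3 were lower (9.38%) and 25 did not pass. Among all tested genes 9.58% were higher and 13.3% lower. The median log2 fold change of the 32 was 0.03. Interferon mRNAs were near or at 0. IFNA1, IFNA2, IFNK, IFNW1, IFNG and IFNL2 were listed at 0 in every library, IFNB1 reached at most 0.0510 FPKM, and IFNL1 and IFNL3 were each above 0 in 1 control library only. IFNE, an epithelial type I interferon, was at 1.17, 0.631 and 0.847 FPKM in the knockout and 1.04, 0.832 and 1.07 in the control, with overlap.

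The receptor chains for type I and type III interferon did not pass. IFNAR1 was at 8.0, 6.92 and 7.38 FPKM in the knockout and 8.16, 8.16 and 7.80 in the control. IFNAR2 was at 4.16, 4.16 and 4.02 FPKM against 3.28, 3.53 and 3.46, with no overlap (log2 fold change 0.21, limma adjusted p = 0.0525), and passed with median centring, with array weights, with both GC and length corrections and without control 3 (adjusted p = 0.0240). IFNLR1 was at 1.53 to 1.88 FPKM against 1.41 to 1.92, and IL10RB at 5.23 to 5.52 against 5.63 to 6.38. JAK1, the kinase that serves both receptors, had a log2 fold change of 0.30 with no overlap (limma adjusted p = 0.0544), and passed with the replicate block (adjusted p = 0.0326) and without control 3 (0.0302), among others.

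The interferon-gamma receptor chain IFNGR1 fell, from 58.2, 58.5 and 61.9 FPKM in the control to 37.4, 34.0 and 36.0 in the knockout, 60.1% of the control mean (log2 fold change -0.72, SE 0.0707, limma adjusted p = 0.000342). Its partner chain IFNGR2 did not pass (log2 fold change -0.09). IFNGR1 lies on chromosome 6, where the 48 tested genes within 10 Mb had a median log2 fold change of -0.53 and 40 of them were lower. CGAS, the sensor of cytosolic DNA, was also lower on that chromosome, at 72.7% of the control mean (log2 fold change -0.43, limma adjusted p = 0.0102), with a median of -0.41 over 37 neighbours, 28 of them lower. The part of these regional shifts in the IFNGR1 and CGAS values was not tested. STAT3 on chromosome 17 was at 76.1% (limma adjusted p = 0.0313), a call lost without any 1 of knockouts 1 to 3, control 1 or control 2, where the adjusted p ran from 0.0700 to 0.123, and without a filter (0.0607). The 205 tested genes within 10 Mb of STAT3 had a median log2 fold change of -0.26, with 101 lower and 2 higher, and their part in its value was not tested.

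Genes of the sensing pathway that rose were STING1, IKBKE and IRF3. STING1, the adaptor downstream of CGAS, was at 2.58, 3.08 and 2.84 FPKM in the knockout and 1.73, 1.74 and 1.72 in the control, 1.63-fold (log2 fold change 0.49, SE 0.0715, limma adjusted p = 0.00208). IKBKE, a kinase that phosphorylates IRF3, was at 18.1, 18.4 and 16.6 FPKM against 11.9, 13.5 and 10.2, 1.49-fold (log2 fold change 0.54, limma adjusted p = 0.00608). Neither gene overlapped between the groups. IRF3 rose 1.23-fold (limma adjusted p = 0.0202), with adjusted p of 0.0617 to 0.0888 without knockout 1, 2 or 3 or control 1 and of 0.0543 with TPM scaling. The 311 tested genes within 10 Mb of IRF3 had a median log2 fold change of 0.12, with 56 higher and 5 lower. Medians around STING1 and IKBKE were 0.02 and -0.04. What part the neighbours have in these values was not tested. MAVS, the mitochondrial adaptor of RIG-I and MDA5, had a log2 fold change of 0.39 with no overlap (limma adjusted p = 0.0733), and passed with the replicate block (0.0207), without control 2 (0.0176) and without control 3 (0.0202). GBP2, a guanylate-binding protein of the interferon-gamma response, rose 1.56-fold from 1.05, 1.20 and 1.16 to 1.86, 1.57 and 1.86 FPKM (limma adjusted p = 0.00697), whereas GBP1 (0.22, limma adjusted p = 0.0834) and GBP3 (0.13, 0.317) had smaller log2 fold changes that did not pass. Both passed with the GC and length correction, GBP1 at a log2 fold change of 0.32 (adjusted p = 0.00752) and GBP3 at 0.30 (0.00720), beside 0.40 for GBP2, and both passed with that correction plus the replicate block and with array weights. Without control 3 GBP1 passed (adjusted p = 0.00969). CXCL10 and CXCL11, chemokines induced by interferon, were at or below 0.0480 FPKM. SOCS1, a feedback inhibitor of Janus kinases under the level filter, was at 1.0, 1.03 and 0.868 FPKM against 0.453, 0.397 and 0.737 and passed as higher without a filter (limma adjusted p = 0.0342). That call was lost with the replicate block (0.0641) and without any 1 of knockouts 1 to 3 or controls 1 and 2 (0.0931 to 0.139).

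**Figure D5:**
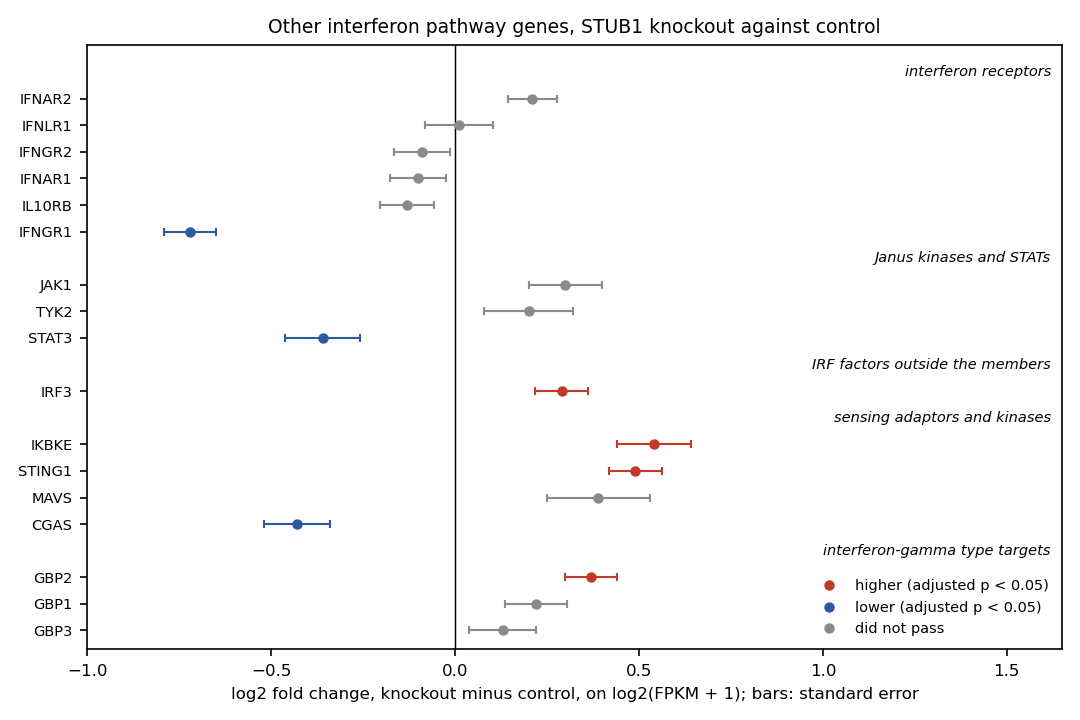
Log2 fold change (knockout minus control, log2(FPKM + 1) scale) of 17 of the 32 tested genes of interferon production, signalling and response outside the 42. Shown are those that passed, the receptor chains and JAK1, TYK2, MAVS, GBP1 and GBP3, with bars for the standard error. IFNGR1 (-0.72) is the farthest point on the left and IKBKE (0.54) on the right; 10 points are grey, and the receptor chains for type I and type III interferon are all among them.

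The OAS and IFIT families, tested in the same fit, moved in both directions: OASL (log2 fold change 1.23), OAS2 (1.17) and IFIT3 (0.45) were higher and IFIT2 (-0.51) and IFIT5 (-0.41) lower. OAS1, IFIT1 and OAS3 (0.39, limma adjusted p = 0.0821) did not pass, though OAS3 did with the replicate block (0.0275), without control 2 (0.0230), without control 3 (0.0250) and with array weights (0.00208).

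By abundance, 13 of the 42 genes had a control mean of at least 10 FPKM, 17 lay between 1 and 10 and 12 under 1. Of the 8 main-test rises, 2 were in the first group (IFI44 and UBE2L6) and 6 in the second. The 12 genes under 1 FPKM were not in the main test. Among all tested genes, of every level together, 9.58% were higher. The share of all genes higher within each level was not computed, so no link between level and rise can be read from these counts.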

How the data were processed

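Poly(A)-selected RNA of HaCaT cells was sequenced after an Illumina TruSeq RNA preparation, per the labels' protocols. The authors deposited 1 table of FPKM values for 20014 Ensembl genes in 6 libraries. Per the submitters' processing notes, the build was GRCh38.p13 and the tools were HISAT2 2.0.5, Trimmomatic 0.36, edgeR 3.6.3, Cufflinks and featureCounts 1.6.3, with no roles stated. Read numbers, annotation release and strand setting: not given in the sources used here. No counting interval could be computed, and the depth behind low values is unknown. FPKM sums ran from 410756 to 447332, and 11200 to 11292 genes reached 1 FPKM per library. No column belonged to another sample.

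Symbols came from an Ensembl table (19991) and GENCODE 29 (23). Coordinates and shared exons came from GENCODE 29 on GRCh38. The 11262 genes with a mean of at least 1 FPKM were tested as log2(FPKM + 1), with a pseudocount of 1, in limma 3.58.1 (R 4.3.3), with 1 term for genotype, a variance trend on intensity and Benjamini-Hochberg adjustment at 0.05. This limma script was tested on simulated data. Tables and plots used Python 3.11.15, pandas 2.3.3 and matplotlib 3.10.9.

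Alternatives were a pseudocount of 0.1, no filter, a mean of at least 5 FPKM, TPM scaling (each library divided by its FPKM sum), median centring, the replicate number as a block, array weights, a correction for GC content and length (splines of 3 df; 11177 genes), both together, and each library left out. For genes under the filter, the pseudocount of 0.1, TPM scaling, the replicate block and each library left out were rerun without it. This choice was made after seeing the data. Median centring, array weights and the GC and length corrections were not rerun for them. Deviations from group means correlated between same-numbered libraries at 0.375, 0.150 and 0.188. The labels name no day or batch that such libraries share, and what gave these correlations was not tested. The main fit did not pair libraries, and the replicate number entered only as a block in the alternatives.

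The 42 genes, the roles, the pathway list and the markers were chosen with earlier results of these data known. The rule for naming took every gene of the 42, with per-library FPKM for those that passed, the IRF factors, RIG-I-like receptors and neighbour pairs, and of the pathway list the genes that passed, receptors and ligands; other pathway genes (JAK1, MAVS, the other GBP genes, CXCL10, CXCL11 and SOCS1) were named after their values were seen. Some genes of the lists are counted but not reported here by name.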

Additional observations from a re-analysis of the deposited data

How the results depend on the processing

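IFI44, DDX60, RIGI and LGALS3BP passed in the same direction under every alternative that tested them. STAT2, IRF9, UBE2L6, HERC6 and HELZ2 each lost the call in at least 1, as given with their values. Against 8 genes higher and 1 lower of 30, the counts were 5 higher of 22 at a mean of at least 5 FPKM and 15 higher and 5 lower with array weights, which gave control 3 a weight of 0.123 and added ISG15, IRF1, IFITM1, IFITM3, SAMD9, PLSCR1 and DTX3L as higher and TRIM25, SAMD9L, SP110 and IFI35 as lower. Lower counts were 2 with median centring and 2 with either correction for GC content and length. Leaving out 1 library gave 3 (without knockout 2) to 10 (without control 3) higher and 1 to 3 (without control 3) lower. Of the 32 pathway genes, against 4 higher and 3 lower, 2 were higher at a mean of at least 5 FPKM, 9 higher and 6 lower with array weights, 8 higher and 5 lower with the GC and length correction, 9 higher with that correction plus the replicate block, and 3 to 8 (without control 3) higher and 2 to 4 lower with 1 library left out. The replicate block alone gave 9 higher and 1 lower of the 30 genes, adding ISG15, and 6 higher and 3 lower pathway genes, adding JAK1 and MAVS.

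Over all tested genes TPM scaling gave 686 higher and 1638 lower, against 1079 and 1500; the 30 genes kept 8 higher, with ISG15 in place of HELZ2.

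Estimates near 0 changed sign. On the log2 scale these were, with TPM scaling, IFIH1 -0.02, EIF2AK2 -0.03, TRIM21 -0.03, PARP14 -0.01, IFI6 0.0, IFNLR1 -0.02 and OAS1 -0.01, with array weights, EIF2AK2 -0.04, TRIM21 -0.02, PARP14 -0.05, IFNLR1 -0.14 (limma adjusted p = 0.0379) and IFNGR2 0.01, and with median centring, IFIT1 0.0. With the GC and length correction, and alike with the replicate block added, they were IRF7 -0.03, IRF1 -0.02, IFI6 -0.02, IFNLR1 -0.07, IL10RB 0.03 and IFIT1 0.11. With 1 library left out the estimates ran from -0.04 to 0.08 for IFIH1, -0.06 to 0.08 for EIF2AK2, -0.01 to 0.3 for ADAR, -0.01 to 0.04 for TRIM21, -0.04 to 0.08 for PARP14, -0.1 to 0.15 for IFI6, -0.08 to 0.07 for IFNLR1, -0.1 to 0.04 for IFIT1, -0.01 to 0.05 for OAS1 and, without a filter, 0.0 to 0.01 for MX2. The cause was not tested.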
